A study of Homo sapiens with 12 samples.

Results

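BON-1 cells, an established line from a human pancreatic neuroendocrine tumour, were compared after co-culture with CAFs at a ratio of 10 parts BON-1 to 4 parts CAFs and after culture alone. CAF is the usual abbreviation of cancer-associated fibroblast. Each side held 3 libraries, so 6 of the 12 libraries of the study entered the comparison, and a gene was tested where 3 or more of those 6 reached an FPKM of 1. FPKM is the number of fragments assigned to a gene per kilobase of its length, scaled to the total assigned in the library. The rule took 12737 of 54261 genes. The remaining 6 libraries were co-cultures at 10:2 and 10:6, also with 3 each, and are used below only to place 10:4 between its neighbours.

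Per the labels, BON-1 cells were taken out of the co-culture by flow cytometry and libraries were made from polyadenylated RNA. The sources used here do not give the source of the CAFs, the length of the co-culture, the marker and purity of the sort, or whether the cells grown alone passed through a sorter, so co-culture and sorting cannot be told apart. Nor do they say that the 3 libraries of a group came from separate cultures, and the p-values then measure only the spread between these libraries, which may be technical. The libraries of BON-1 alone held 12918760 to 21882537 assigned reads and those of 10:4 held 12604134 to 14216450. Most neuroendocrine markers were abundant in every library, with CHGA, the granule protein chromogranin A, at 1001 to 1374 FPKM across the 6. The vesicular transporter SLC18A1 was low, at 2.00 to 3.32, and the serotonin-synthesising enzyme TPH1 was at 0 to 0.251 FPKM.

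Neuroendocrine cells store peptide hormones in dense-core granules, which granins help to build and which fuse with the cell surface when the cell is stimulated. CAFs are the main producers of collagen in a tumour and, when activated, carry the actin and myosin of contractile cells. Tumour cells and CAFs exchange signals through secreted ligands of the TGF-beta, hedgehog, WNT and growth factor families, and through the matrix itself.

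At 10:4 fibrillar collagens, matrix glycoproteins and contractile proteins were among the largest rises, with mean FPKM 5.42 times higher for COL3A1 and 3.56 times higher for MYL9. Granule proteins moved apart: SCG2 and CHGB rose while CHGA and VGF fell. The ligands IHH, WNT7B and DLL1 fell. The chaperone HSPD1, the tRNA synthetase EPRS, the pore protein RANBP2 and the topoisomerase TOP2A rose, and 24 genes, RANBP2 and TOP2A among them, stood higher at 10:4 than in any other group. Of all genes tested, 5995 (47.1%) passed a limma adjusted p of 0.05, 3571 higher (28%) and 2424 lower (19%), and 66 of those rose and 8 fell at least 2-fold (0.518% and 0.0628%). The 3 libraries of 10:4 did not overlap the 3 of BON-1 alone in 7173 genes (56.3%). The rule for the largest rises and falls took only genes without overlap, so for those genes its absence is no further support.

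Direction followed the base composition of the transcript, and every count below has to be read beside that. Among genes in the lowest of 5 equal bins by GC content (25% to 41.7%), 80.9% rose and 0.5% fell, with a median log2 difference of 0.45. In the highest bin (59.0% to 87.9%), 1.2% rose and 38.3% fell, with a median of -0.13. Across 11967 genes the Spearman correlation between GC content and the log2 difference was -0.727, a description across genes that share their libraries. The correlation with gene length was 0.168. After a smooth trend on GC content and length was taken out of each library, the correlation with GC content was 0.0104 and 2781 of 11967 genes were called (23.2%), 1279 higher (10.7%) and 1502 lower (12.6%), so the excess of rises turned into an excess of falls. In both fits and in the same direction, 1137 genes rose (9.5%) and 646 fell (5.4%). The share called still varied with GC content once trends were removed. It was 18.8% higher and 17.4% lower in the lowest bin and 3.0% and 6.3% in the highest. Shares over all genes are therefore a low background for lists of low GC content. The origin of the trend, whether in library preparation, in the sort or in the cells, was not tested, and values with it removed are given beside the groups as "trends removed".

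**Figure D1:**
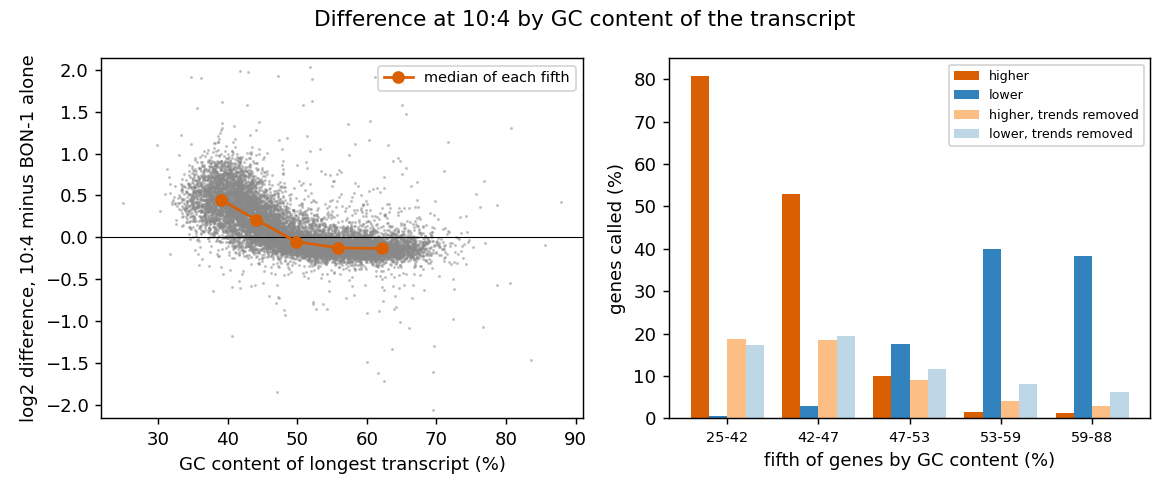
Left, each grey point is a gene, with the GC content of its longest transcript (%) on the x axis and its log2 difference in FPKM + 1 between 10:4 and BON-1 alone on the y axis; orange points are medians of the 5 equal groups by GC content, falling from 0.45 to -0.13. Right, bars give the percent of genes of each group called higher or lower, as deposited (dark) and with trends removed (pale). The dark bars go from 80.9% higher to 38.3% lower. The pale ones stay under 20% but still vary, from 18.8% higher and 17.4% lower in the lowest group to 3.0% and 6.3% in the highest.

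Coding sequences give examples of lower and higher GC content. The first 120 coding bases are printed for 2 genes that rose, CENPF and SCG2, and 2 that fell, CHGA and IHH, from GENCODE 29 transcripts, with G and C in capitals.
CENPF: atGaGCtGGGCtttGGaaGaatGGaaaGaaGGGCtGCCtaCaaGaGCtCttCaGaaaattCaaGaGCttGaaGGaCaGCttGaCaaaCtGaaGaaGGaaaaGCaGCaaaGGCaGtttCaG
SCG2: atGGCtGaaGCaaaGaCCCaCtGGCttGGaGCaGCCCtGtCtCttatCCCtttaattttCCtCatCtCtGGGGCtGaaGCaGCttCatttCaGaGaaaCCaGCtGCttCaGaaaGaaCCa
CHGA: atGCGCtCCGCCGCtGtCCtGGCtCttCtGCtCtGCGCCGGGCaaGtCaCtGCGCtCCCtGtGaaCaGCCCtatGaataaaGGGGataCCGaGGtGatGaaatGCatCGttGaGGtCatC
IHH: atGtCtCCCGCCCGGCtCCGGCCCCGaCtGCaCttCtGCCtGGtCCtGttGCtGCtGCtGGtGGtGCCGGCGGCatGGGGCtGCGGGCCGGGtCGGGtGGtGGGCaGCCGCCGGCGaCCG
Of the printed bases, G and C made up 45.0% in CENPF, 48.3% in SCG2, 57.5% in CHGA and 75.8% in IHH. Over the whole coding sequence, G and C made up 41.0% in CENPF, 45.1% in SCG2, 61.9% in CHGA and 65.9% in IHH. The bins above were made from whole transcripts. CENPF (chromosome 1, 214603195 to 214664571) encodes a protein of the mitotic kinetochore, SCG2 (chromosome 2, 223596940 to 223602361) and CHGA (chromosome 14, 92922664 to 92935285) encode granins, and IHH (chromosome 2, 219054424 to 219060921) encodes a secreted hedgehog ligand. With trends removed each kept its direction, with log2 differences of 0.69, 0.52, -0.26 and -0.33 in that order.

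Fibrillar collagens were among the largest rises. COL1A1, a chain of type I collagen, had 9.30, 9.05 and 9.31 FPKM in BON-1 alone and 37.8, 36.0 and 38.5 at 10:4. COL1A2, its partner chain, had 4.46, 3.46 and 4.31 and 18.6, 19.0 and 19.3. COL3A1, the chain of type III collagen that is laid down with type I, had 1.47, 1.60 and 1.69 and 8.32, 8.96 and 8.50. In each of the 3 genes the lowest co-culture library stood more than 3 times above the highest library of BON-1 alone. The log2 differences were 1.91 for COL1A1, 1.98 for COL1A2 and 1.89 for COL3A1 (limma adjusted p = 1.58e-11, 4.05e-09 and 4.05e-09), and 2.00, 1.59 and 1.94 with trends removed.

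Of 13 tested fibroblast matrix genes, 11 rose and 0 fell as deposited, against 28% higher among all genes, and 11 and 0 with trends removed. The same 10 rose in both, THBS1 as deposited alone and COL6A1 with trends removed alone. The list had a median log2 difference of 0.91 (0.86 with trends removed) against -0.01 over all genes. SPARC, a glycoprotein that binds collagen, had 4.69, 5.58 and 4.87 FPKM alone and 20.5, 23.5 and 21.5 at 10:4. Levels from here on are means ± SD of 3 libraries where single libraries are not listed. Rises were smaller in the fibril-regulating chains COL5A1 (0.581 ± 0.0191 to 2.53 ± 0.234) and COL5A2 (0.328 ± 0.00841 to 1.49 ± 0.0322) and in the type VI chains COL6A2 (5.05 ± 0.599 to 8.23 ± 0.529) and COL6A3 (1.27 ± 0.129 to 3.69 ± 0.288). THBS2, a matricellular protein, rose from 0.221 ± 0.0557 to 1.18 ± 0.198. Fibronectin, encoded by FN1, was already at 21.7 ± 0.589 in BON-1 alone and rose to 31.6 ± 1.94, with a log2 difference of 0.52 that fell to 0.14 with trends removed. BGN, the proteoglycan biglycan, had the highest mean of the list and did not pass, at 207 ± 0.652 alone and 195 ± 11.0 at 10:4 (limma adjusted p = 0.0667), but was lower by 0.13 without 10:4 replicate 3 (limma adjusted p = 0.00399). The other member that did not pass as deposited was COL6A1, at 22.4 ± 0.843 and 22.9 ± 1.33 (limma adjusted p = 0.612).

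Several contractile genes rose as well. ACTA2, smooth muscle actin and a mark of activated fibroblasts, had 6.49, 5.44 and 6.05 FPKM alone and 28.1, 26.9 and 27.8 at 10:4. Its log2 difference of 2.03 ± 0.0537 (SE) was the largest of any gene under the rule for named genes (limma adjusted p = 7.34e-10). TAGLN, an actin-bundling protein, had 5.94, 5.61 and 6.81 and 18.1, 17.9 and 15.4, and MYL9, a myosin light chain, 1.84, 1.72 and 1.68 and 5.76, 6.76 and 6.16. Neither gene's groups overlapped. CALD1, which regulates actomyosin, rose by 0.90 (0.51 with trends removed). Of 10 tested contractile genes 6 rose and 0 fell, or 8 and 0 with trends removed. The tropomyosin TPM2 and the calponin CNN2, which BON-1 cells carry at a high level, did not pass as deposited: TPM2 stood at 107 ± 1.40 and 107 ± 4.75 and CNN2 at 109 ± 0.168 and 104 ± 0.961 (limma adjusted p = 0.916 and 0.076). With trends removed TPM2 was at 0.12 (limma adjusted p = 0.0148).

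Surface and secreted fibroblast genes followed less evenly, with 6 of 16 higher and 1 lower in each fit, of which 4 and 1 were the same genes. IGFBP7, a secreted binding protein of insulin-like growth factors, had 2.64, 2.91 and 3.09 FPKM alone and 12.2, 11.0 and 9.83 at 10:4, with no overlap. THY1, a surface protein used to sort fibroblasts, went from 0.582 ± 0.0497 to 2.13 ± 0.177, and FSTL1, a secreted glycoprotein, from 0.699 ± 0.0966 to 3.14 ± 0.447. PDGFRA, a receptor of fibroblasts for platelet-derived growth factor, rose from 2.44 ± 0.148 to 3.47 ± 0.421 as deposited, a log2 difference of 0.37 that was 0.03 with trends removed (limma adjusted p = 0.812). S100A4 and TIMP1, which fibroblasts and many tumour cells share, did not pass as deposited, at 2281 ± 43.9 and 2200.5 ± 129.7 for S100A4 and 89.4 ± 3.53 and 92.4 ± 5.14 for TIMP1.

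Over 24 fibroblast markers, of which 16 were tested, the summed level was 90.4 to 93.6 FPKM in the libraries of BON-1 alone and 225 to 231 at 10:4, and it was 131 to 133 at 10:2 and 316 to 320 at 10:6. The markers under 1 FPKM numbered 11 of 24 in each library of BON-1 alone and 8 of 24 at 10:4. Several defining genes of fibroblasts were under 1 FPKM in all 6 libraries and were not tested, yet stood higher at 10:4 without overlap: decorin (DCN) at 0.0137 to 0.0532 alone and 0.0696 to 0.291 at 10:4, lumican (LUM) at 0.0732 to 0.197 and 0.266 to 0.600, periostin (POSTN) at 0.0353 to 0.0811 and 0.607 to 0.999, and the activation protein FAP at 0 to 0.0152 and 0.0585 to 0.0792 FPKM. In RNA from a pool of sorted cells, transcription of these genes in BON-1 cells and RNA from CAFs that passed the sort cannot be told apart. Markers of pericytes and smooth muscle, 6 genes of which 1 was tested, summed to 2.83 to 3.10 alone and 3.48 to 4.59 at 10:4, without overlap. MCAM was at 0.251 to 0.372 and 0.697 to 1.00, and NOTCH3 at 0.370 to 0.422 and 0.732 to 0.988. The tested gene, MYH11, was not higher, at 1.85 to 1.92 alone and 1.68 to 1.88 at 10:4. Libraries of the 2 groups overlapped in RGS5, CSPG4 and DES. Sums in BON-1 alone and at 10:4 were 39.3 to 40.3 and 39.7 to 41.3 for 6 endothelial genes and 8.37 to 9.02 and 9.40 to 10.8 for 7 leukocyte genes. Nearly all of those sums came from CDH5 and KDR and from CD68 and LYZ, and LYZ was called higher as deposited (0.46, limma adjusted p = 0.0134) but not with trends removed (0.648), nor without BON-1 alone replicate 2 or 10:4 replicate 1 (0.0602 and 0.0506), while CD3E and EMCN were at 0 in all 6 libraries. Their part in the other results was not tested.

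**Figure D2:**
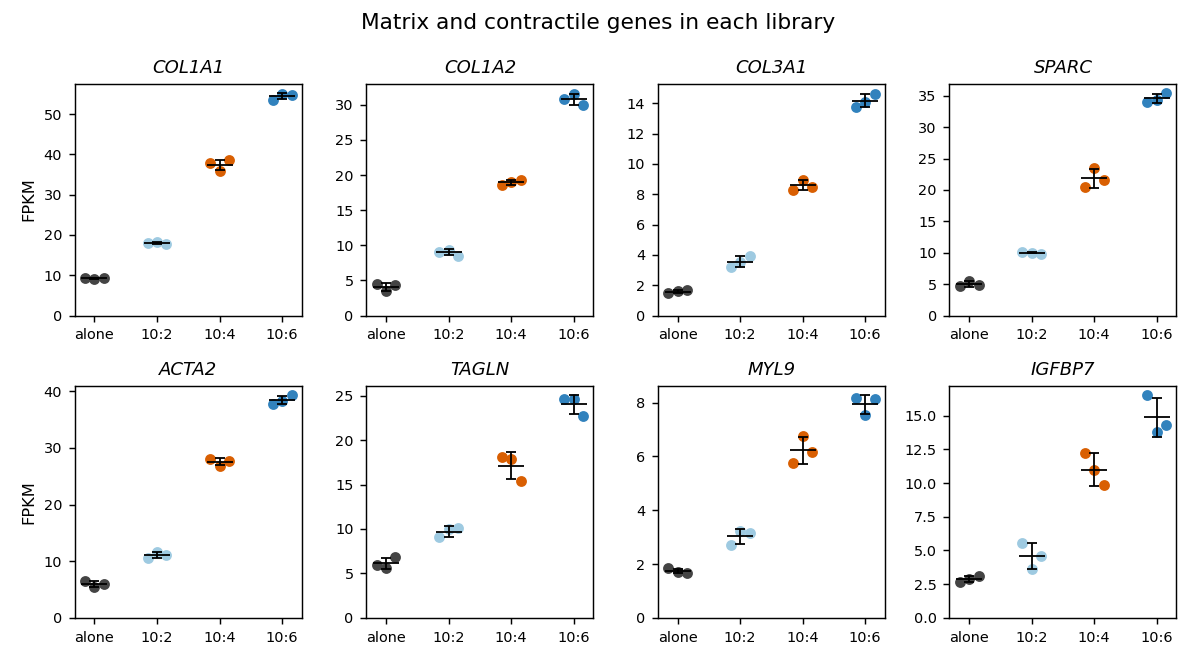
FPKM (y axis, linear) of 8 matrix and contractile genes in each of the 12 libraries, by group on the x axis; points are libraries, the bar is the mean and the whisker the SD of 3. In each panel the 10:4 points lie above those of BON-1 alone and 10:2 and below those of 10:6, as for COL1A1, where means were 9.22 ± 0.148, 18.0 ± 0.273, 37.4 ± 1.31 and 54.4 ± 0.794.

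Some enzymes and receptors that work on the matrix rose in smaller steps. Among 20 tested proteases and collagen-modifying enzymes, 6 rose and 2 fell (30.0% and 10.0%), where 28% and 19% of all genes did. With trends removed 7 rose and 0 fell, against 10.7% and 12.6% of all genes. LOXL2, which cross-links collagen, went from 2.11 ± 0.0723 to 3.88 ± 0.228 and its log2 difference of 0.65 was 0.76 with trends removed. PLOD2, a lysyl hydroxylase for collagen, went from 4.18 ± 0.305 to 8.49 ± 1.03 (0.87 and 0.40), and ADAM10, a sheddase of surface ligands, from 4.48 ± 0.304 to 8.97 ± 0.152 (0.87 and 0.38). SERPINH1, the collagen chaperone HSP47, did not pass, at 125 ± 3.23 and 120.3 ± 5.24 (limma adjusted p = 0.229).

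Integrins, the receptors by which cells hold collagen and laminin, were among the surface proteins that rose, with 7 of 14 members higher and 2 lower in each fit, of which 6 and 2 were the same genes. ITGB1, the shared beta chain, had 45.7, 43.4 and 47.6 FPKM alone and 77.6, 85.8 and 85.1 at 10:4. Its groups did not overlap, and the log2 difference was 0.85 ± 0.0566 (SE, limma adjusted p = 4.9e-07) or 0.41 with trends removed. The alpha chains that pair with it for collagen rose too, ITGA1 from 2.81 ± 0.199 to 6.46 ± 0.44 and ITGA2 from 1.07 ± 0.136 to 2.70 ± 0.207, as did the laminin-binding chain ITGA6 from 7.85 ± 0.211 to 13.6 ± 0.477. Basement membrane genes were divided, with 3 of 14 higher and 5 lower (3 and 3 with trends removed). Laminin chains LAMA3 and LAMB1 rose by 0.41 and 0.32, while LAMA5 and the proteoglycan AGRN, both GC-rich, fell by 0.17 and 0.21 (-0.11 and -0.14 with trends removed).

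Genes of the secretory granule were the most abundant of the endocrine lists. SCG2, secretogranin II, had 743, 753 and 744 FPKM in BON-1 alone and 1279.8, 1363 and 1279 at 10:4, and CHGB, chromogranin B, had 217, 222 and 217 and 249.6, 259 and 259.5. CHGA had 1344, 1374 and 1322 and 1042, 1001 and 1021, and VGF, a granule peptide precursor, 417, 440.3 and 421 and 370.0, 361 and 372. Libraries of the 2 groups did not overlap in any of the 4, with SCG2 and CHGB high and CHGA and VGF low in all 3 co-culture libraries. By limma the log2 differences were 0.81 ± 0.0301 (SE) for SCG2, 0.23 ± 0.0275 for CHGB, -0.40 ± 0.0317 for CHGA and -0.21 ± 0.0448 for VGF (adjusted p = 8.95e-09, 4.64e-05, 1.81e-06 and 0.00232). With trends removed they were 0.52, 0.32, -0.26 and -0.10, so SCG2 lost part of its rise and CHGB gained.

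Of 12 tested granins and granule cargo genes, 8 rose and 3 fell, with a median log2 difference of 0.21. With trends removed 4 rose and 4 fell and the median was 0.04. SCG3, which ties granins to the granule membrane, went from 25.7 ± 1.43 to 36.2 ± 1.03, and the prohormone convertase PCSK1 from 14.7 ± 0.617 to 19.1 ± 1.19. Both calls ended with trends removed, at 0.13 and 0.05 (limma adjusted p = 0.122 and 0.43). CPE, carboxypeptidase E, which trims hormone ends, rose by 0.12. DNAJC12, a co-chaperone of the hydroxylases that make serotonin and catecholamines, rose by 0.39 as deposited and turned to -0.05 with trends removed. Of 18 exocytosis genes 5 rose and 9 fell, or 1 and 5 with trends removed. UNC13A, which primes vesicles, and CPLX2, which acts at fusion and was not on the list, fell, UNC13A from 18.9 ± 0.637 to 15.1 ± 1.15 and CPLX2 from 19.6 ± 0.857 to 14.9 ± 0.85 (trends removed -0.25 and -0.27). The calcium sensor SYT1 rose by 0.58, a call that ended with trends removed (0.19, limma adjusted p = 0.116).

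Serotonin genes were divided, with 2 of 7 higher and 3 lower, or 1 and 1 with trends removed. DDC, the decarboxylase that completes serotonin synthesis, fell from 36.4 ± 0.225 to 32.5 ± 0.959, and MAOA, which degrades serotonin, rose from 7.41 ± 0.369 to 9.16 ± 0.207 (-0.11 and 0.22 with trends removed, where only MAOA of these 2 passed). The call for DDC also ended without BON-1 alone replicate 2 or without 10:4 replicate 1 or 3 (limma adjusted p from 0.0549 to 0.0552). Of 19 neuroendocrine transcription factors 5 rose and 6 fell, or 2 and 2. NKX2-2, a factor of endocrine lineages in pancreas and gut, had 20.03, 20.8 and 20.2 FPKM alone and 14.4, 16.4 and 16.1 at 10:4. All 3 co-culture libraries lay lower, a log2 difference of -0.36 ± 0.0588 (SE, limma adjusted p = 0.000394). CDX2, a factor of intestinal identity, fell from 7.49 ± 0.355 to 5.91 ± 0.114, and NEUROD1, a factor of endocrine differentiation, rose from 31.8 ± 1.87 to 40.4 ± 1.46; all 3 calls held with trends removed. INSM1, a repressor used to diagnose neuroendocrine tumours, fell from 195 ± 2.48 to 166 ± 4.27 and missed the threshold with trends removed (limma adjusted p = 0.115).

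Among hormones, the glycoprotein hormone subunits made the largest steps, on an uneven baseline. CGA, the alpha subunit shared by chorionic gonadotropin and the pituitary glycoprotein hormones, had 15.2, 83.8 and 28.7 FPKM in the 3 libraries of BON-1 alone and 124, 148 and 131 at 10:4. Chorionic gonadotropin beta was read from 3 genes: CGB5 had 1.42, 11.7 and 5.01 alone and 15.5, 21.4 and 22.1 at 10:4, CGB8 had 0.875, 5.82 and 1.92 and 7.38, 9.48 and 10.4, and CGB3 had 1.17, 4.48 and 1.18 and 7.19, 6.82 and 7.61. Replicate 2 of BON-1 alone was the highest of its group in all 4 genes, yet no library of that group reached the lowest at 10:4. The coding sequences of CGB5 and CGB8 were identical over 495 bases and that of CGB3 matched each at 99.8%, so the split of reads among the 3 is uncertain and they are not independent. By limma the log2 differences were 1.97 ± 0.554 (SE) for CGA and 1.84 ± 0.608 for CGB5 (adjusted p = 0.0118 and 0.0262). With replicate 1 of BON-1 alone left out, the difference was 1.43 for CGA (limma adjusted p = 0.0519) and 1.22 for CGB5 (0.111), and both calls ended. CGB5 also lost its call without BON-1 alone replicate 3 or 10:4 replicate 2 or 3 (limma adjusted p from 0.0549 to 0.0690), with no filter on low values (0.0829) or under a robust variance model (0.0667).

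The gene for the alpha subunit lies on chromosome 6 and its promoter is known for cAMP response elements, which bind factors of the CREB family. The 250 bases before its start (GRCh38.p14, minus strand, chr6:87095107-87095356, RefSeq) are shown because CGA had the largest log2 difference of the 4 subunit genes as deposited, though not with trends removed; both copies of TGACGTCA, which reads the same on both strands, are in capitals.
CGA: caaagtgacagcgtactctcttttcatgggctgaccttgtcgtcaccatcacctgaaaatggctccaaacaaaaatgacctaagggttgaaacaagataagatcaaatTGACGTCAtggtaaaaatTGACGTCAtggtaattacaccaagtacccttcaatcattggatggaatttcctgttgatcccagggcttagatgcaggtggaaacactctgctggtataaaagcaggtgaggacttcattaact
The copies begin at -142 and -124, counted from the start site. Of 35116 RefSeq promoters cut to the same 250 bases, 578 (1.65%) held this motif, and the promoters of CGB3, CGB5 and CGB8 held 0. A match describes letters only, and no binding was measured.

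TTR, transthyretin, a thyroid hormone carrier that endocrine cells also make, had 7.32, 6.39 and 5.42 FPKM alone and 4.16, 3.25 and 2.54 at 10:4. Its log2 difference of -0.78 ± 0.14 (SE, limma adjusted p = 0.000764) was the largest fall under the rule for named genes, or -0.85 with trends removed. NTS, neurotensin, which BON-1 cells are known to secrete, stood at 113 ± 2.80 and 123 ± 5.57 and did not pass as deposited; with trends removed its difference was -0.33 (limma adjusted p = 2.85e-05), and without 10:4 replicate 3 it was 0.16 (0.0328). Of 12 hormone and peptide genes 4 rose and 1 fell, or 5 and 3 with trends removed, and all 4 that rose as deposited were CGA and the 3 beta genes.

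**Figure D3:**
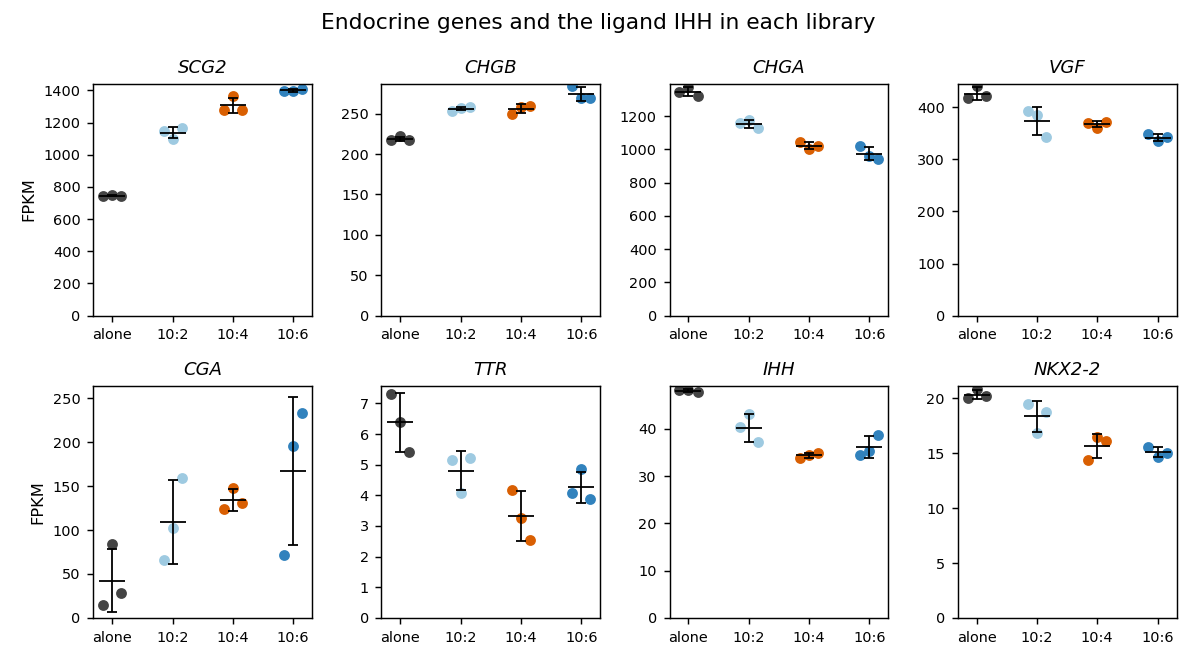
FPKM (y axis, linear) of 7 endocrine genes and the ligand IHH in each of the 12 libraries, by group on the x axis; points are libraries, the bar is the mean and the whisker the SD of 3. SCG2 means went from 747 ± 5.35 alone to 1308 ± 48.3 at 10:4 and CHGA means from 1347 ± 25.9 to 1021 ± 20.5, while the 3 CGA points of BON-1 alone spread from 15.2 to 83.8.

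IHH, which signals to hedgehog receptors on neighbouring fibroblasts, had 48.3, 48.2 and 47.8 FPKM in BON-1 alone and 33.8, 34.5 and 34.9 at 10:4. The SD was under 1 FPKM in each group and the groups did not overlap, and the log2 difference was -0.47 ± 0.0523 (SE, limma adjusted p = 2.32e-05) or -0.33 with trends removed. Of 6 tested hedgehog genes 0 rose and 2 fell, the other being SUFU, an inhibitor of the GLI factors (3.93 ± 0.209 to 3.21 ± 0.296); with trends removed IHH alone was called. The call for SUFU ended without BON-1 alone replicate 3 or without 10:4 replicate 1 or 3 (limma adjusted p from 0.0548 to 0.0834). The receptor PTCH1, itself a target of the pathway, did not pass, at 5.59 ± 0.217 and 5.27 ± 0.722 (limma adjusted p = 0.448).

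WNT7B, a secreted WNT ligand, had 15.6, 15.4 and 16.1 FPKM alone and 11.5, 11.4 and 12.6 at 10:4, all 3 co-culture libraries lower (-0.38, limma adjusted p = 4.02e-05; -0.27 with trends removed). FZD6, a WNT receptor, rose from 3.75 ± 0.175 to 7.23 ± 0.554, and DKK1, a secreted inhibitor of the pathway, from 25.7 ± 0.541 to 32.6 ± 1.34, the latter without a call once trends were removed (0.08). The co-receptor LRP5 fell by 0.19. CTNNB1, beta-catenin, rose by 0.17 and turned to -0.10 with trends removed, past the threshold in both (limma adjusted p = 8.06e-05 and 0.0112), so its direction depends on that correction. Among 22 WNT genes 6 rose and 5 fell, or 3 and 4 with trends removed.

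Of 5 tested NOTCH ligands 3 fell. DLL1 went from 15.1 ± 0.418 to 11.9 ± 0.037, JAG2 from 32.5 ± 1.09 to 27.3 ± 0.529 and DLL4 from 53.5 ± 2.12 to 47.7 ± 1.66; DLL1 and JAG2 kept the call with trends removed (-0.19 and -0.15) and DLL4 did not (-0.04). JAG1 and DLL3 did not pass, at 0.04 and -0.14 (limma adjusted p = 0.461 and 0.0599), but JAG1 was called higher without 10:4 replicate 1 (0.0332) and DLL3 lower without BON-1 alone replicate 1 or 10:4 replicate 3 (0.0492 and 0.0466). RBPJ, through which NOTCH acts on its targets, rose from 2.06 ± 0.0289 to 4.48 ± 0.434 (0.34 with trends removed). Over 17 NOTCH genes 1 rose and 6 fell (5.9% and 35.3%), against 28% and 19% of all genes, and 2 rose and 2 fell with trends removed. The list's median GC content of 59.8% lies in the highest bin. There 1.2% of genes rose and 38.3% fell as deposited, so the falls in the list were near that share.

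In the TGF-beta and BMP list 9 of 26 rose and 6 fell, or 4 and 5 with trends removed. TGFBI, a matrix protein induced by TGF-beta, had 49.2, 48.0 and 47.8 FPKM alone and 61.5, 65.1 and 63.6 at 10:4, with no overlap and a log2 difference of 0.38 (0.44 with trends removed, limma adjusted p = 1.85e-06 and 3.8e-07). The receptors BMPR1A and TGFBR3 rose by 0.68 and 0.62 (0.24 and 0.33 with trends removed). GDF15, a secreted stress cytokine of the family, fell from 483 ± 6.21 to 417 ± 13.8, and ID1, a target of BMP signals, from 410.1 ± 5.45 to 369 ± 11.2. The EGF ligands EREG and AREG rose from 2.81 ± 0.587 to 5.53 ± 0.655 and from 8.71 ± 0.271 to 11.0 ± 0.123, part of 3 of 8 EGF family genes that rose, of which 0 were called with trends removed. IGF2, the insulin-like growth factor that BON-1 cells express strongly, stood at 822 ± 17.0 and 769 ± 37.9 with overlapping libraries; its limma adjusted p was 0.0342 as deposited and its difference 0.00031 with trends removed. That call ended without BON-1 alone replicate 1 or 3 or without 10:4 replicate 1 or 2 (limma adjusted p from 0.10 to 0.11). IGF2R, which clears IGF2, fell by 0.20 (-0.24).

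Epithelial genes went both ways, junction genes included. DSP, desmoplakin, had 16.2, 16.0 and 16.2 FPKM alone and 22.6, 25.3 and 27.1 at 10:4, and DSG2, a desmosomal cadherin, 6.76, 6.43 and 7.15 and 11.9, 13.5 and 12.5. Groups were apart in both, with log2 differences of 0.60 for DSP and 0.81 for DSG2 (limma adjusted p = 3.99e-06 and 4.41e-07; 0.52 and 0.43 with trends removed). TJP1, a tight junction scaffold, and EPCAM, an epithelial adhesion molecule, rose by 0.56 and 0.28 (0.33 and 0.22). JUP, plakoglobin of the same junctions, and CLDN4, a claudin, fell by 0.18 and 0.19, without a call once trends were removed (-0.06 and -0.06). KRT8 fell from 2275 ± 17.8 to 2132 ± 71.5 as deposited and showed 0.03 with trends removed, without a call, and its call as deposited ended without any 1 library of BON-1 alone or without 10:4 replicate 2 or 3 (limma adjusted p from 0.0589 to 0.115). Across the epithelial list, 8 of 23 members rose while 8 fell, against 6 and 1 with trends removed. Of 14 listed genes of mesenchymal transition only 4 were tested. VIM, vimentin, which these cells carry at 76.4 ± 1.17 FPKM alone, reached 81.1 ± 1.20, and MSN, moesin, went from 0.782 ± 0.348 to 1.81 ± 0.302; of the 2, MSN kept the call with trends removed (limma adjusted p = 0.754 for VIM and 0.00292 for MSN). The call for VIM also ended without BON-1 alone replicate 1 or 2 or 10:4 replicate 3 (limma adjusted p from 0.0597 to 0.0694).

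Among genes of mitosis, TOP2A, the topoisomerase that untangles replicated DNA, had 6.87, 6.48 and 7.39 FPKM alone and 18.2, 20.8 and 18.9 at 10:4, and the motor KIF11, which separates spindle poles, 4.16, 4.48 and 4.73 and 9.84, 10.6 and 10.1. No library of BON-1 alone came near the co-culture range in either. Log2 differences were 1.36 ± 0.0634 (SE) for TOP2A and 1.03 ± 0.11 for KIF11, or 0.88 and 0.55 with trends removed (limma adjusted p = 4.85e-08 and 1.63e-05 as deposited). ANLN, a scaffold of the cleavage furrow, rose by 0.99 and BUB1, a checkpoint kinase, by 0.67 (0.54 and 0.34). Of 45 mitotic genes 35 rose and 6 fell with a median of 0.41, and with trends removed 16 rose and 5 fell with a median of 0.08. Their median GC content was 41.7% against 49.8% over all genes. GC-richer members behaved otherwise as deposited. PLK1, a mitotic kinase, fell from 149.8 ± 1.82 to 134 ± 3.82, without a call once trends were removed (-0.03). UBE2C, a ubiquitin-conjugating enzyme of mitotic exit, stood at 268 ± 4.07 and 277 ± 13.3 and did not pass (limma adjusted p = 0.263). UBE2C was called higher with trends removed and under quantile normalisation, by 0.09 and 0.08 (limma adjusted p = 0.00706 and 0.0156).

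DNA replication genes were evenly divided, with 13 of 41 higher and 12 lower (31.7% and 29.3%), against 28% and 19% of all genes. With trends removed 3 rose and 7 fell, where 10.7% and 12.6% of all genes did. RRM1, the large subunit of ribonucleotide reductase, rose from 31.9 ± 0.313 to 50.7 ± 1.74 (0.38 with trends removed), and PCNA, the polymerase clamp, from 189.8 ± 1.62 to 223 ± 7.79. MCM7, a subunit of the replicative helicase, fell from 195 ± 4.27 to 169 ± 0.248, and MCM6 of the same complex rose from 31.6 ± 0.912 to 39.8 ± 1.32. Their GC contents were 57.6% for MCM7 and 43.1% for MCM6, and with trends removed the differences were -0.08 and 0.03.

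Genes of nuclear transport and of splicing had more rises than falls as deposited. RANBP2, the large filament protein of the pore, had 4.50, 4.76 and 4.86 FPKM alone and 11.7, 13.9 and 13.9 at 10:4, a log2 difference of 1.31 (0.81 with trends removed). CSE1L, which recycles importin alpha, and NUP160, of the pore scaffold, rose by 0.86 and 0.80 (0.41 and 0.49). RAN, the small GTPase that drives transport, stood at 298 ± 5.58 and 296 ± 13.4 and did not pass as deposited, with -0.30 after trends were removed (limma adjusted p = 0.738 and 0.000131). Of 35 pore and transport genes 24 rose and 4 fell, or 18 and 6 with trends removed, and the median went from 0.45 to 0.14. Of 40 splicing genes 24 rose and 9 fell, or 14 and 14, and the median went from 0.29 to -0.02. Median GC content was 43.1% in the transport list and 41.2% in the splicing list, against 49.8% over all genes. The splicing median lies in the lowest GC bin, where 80.9% of genes rose as deposited, a larger share than 24 of 40. The transport median lies in the bin of 41.7% to 46.9%. A majority of genes rose there too as deposited, and 18.5% rose and 19.5% fell with trends removed. SF3B1, a core splicing factor, had 18.7, 18.5 and 18.3 alone and 40.5, 41.1 and 39.0 at 10:4 and kept a difference of 0.67 with trends removed (limma adjusted p = 1.11e-07).

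Protein-making and protein-folding genes included large rises at high expression. EPRS, the synthetase for glutamate and proline tRNAs, had 10.4, 10.2 and 9.91 FPKM alone and 23.9, 26.2 and 25.0 at 10:4. TARS and NARS, the threonine and asparagine enzymes, went from 47.0 ± 1.11 to 89.4 ± 1.81 and from 31.2 ± 0.518 to 58.5 ± 1.29. With trends removed the differences were 0.91, 0.66 and 0.67, and 7 of 18 synthetases rose and 2 fell in place of 9 and 6. AARS, the alanine enzyme, fell by 0.14 and KARS, the lysine enzyme, stood at 139 ± 2.06 and 143 ± 2.62, so the family did not move as one.

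HSPD1, the mitochondrial chaperonin, had 264, 254 and 255 FPKM alone and 447, 459 and 445 at 10:4, and CCT8, a subunit of the cytosolic chaperonin, 59.7, 58.8 and 59.7 and 111, 108 and 105. Both were high in all 3 co-culture libraries, with log2 differences of 0.80 for HSPD1 and 0.85 for CCT8 (limma adjusted p = 2.39e-08 and 4.05e-09; 0.59 and 0.57 with trends removed). Of 26 chaperone genes 14 rose and 5 fell, or 14 and 3 with trends removed, against 10.7% higher and 12.6% lower among all genes in that fit. In the GC bin of 41.7% to 46.9%, which holds the list's median of 45.6%, that fit called 18.5% higher and 19.5% lower. The 2 cytosolic HSP90 genes parted: HSP90AA1, the inducible form, went from 173 ± 5.62 to 298 ± 7.89 and HSP90AB1, the constitutive form, from 636 ± 1.10 to 602 ± 4.43 (0.61 and -0.09 with trends removed, both called). Under quantile normalisation HSP90AB1 was no longer called (limma adjusted p = 0.787). HSPA8, the constitutive HSP70, stood at 747 ± 8.90 and 745 ± 18.0 and did not pass. In the endoplasmic reticulum HSP90B1 rose by 0.78 and CANX, calnexin, by 0.61, while CALR, calreticulin, and ATF4, the factor of the integrated stress response, fell by 0.11 and 0.12 as deposited and were at -0.0042 and 0.01 with trends removed. The unfolded protein and ATF4 list counted 14 of 33 higher and 10 lower, or 7 and 3.

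**Figure D4:**
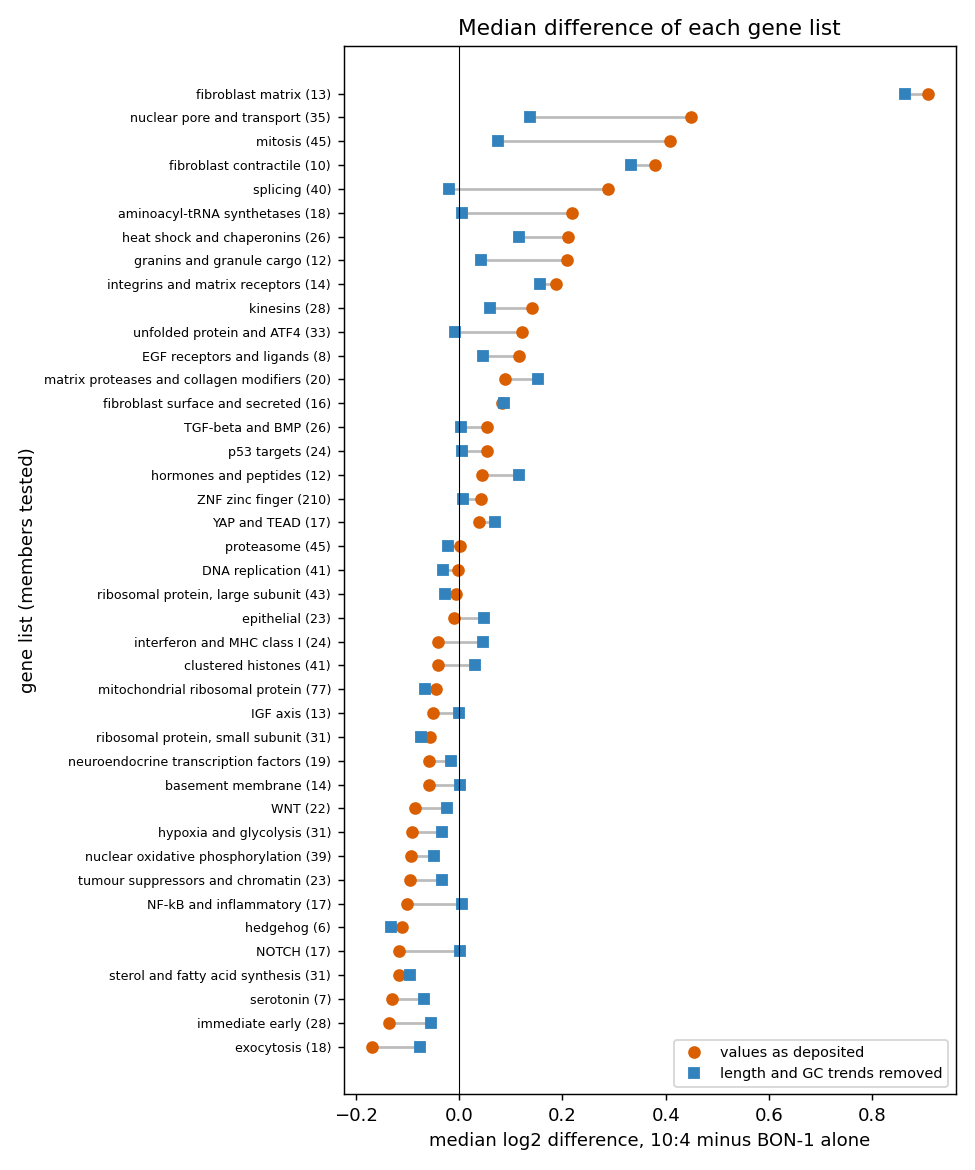
Median log2 difference between 10:4 and BON-1 alone (x axis) over the tested members of each gene list (y axis, number of members in brackets), as deposited (orange circles) and with length and GC trends removed (blue squares). Matrix genes stay near 0.9 in both, at 0.91 and 0.86, while mitosis moves from 0.41 to 0.08 and splicing from 0.29 to -0.02.

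Of 31 sterol and fatty acid genes 7 rose and 16 fell, or 3 and 12 with trends removed, where 19% of all genes fell as deposited and 12.6% with trends removed. HMGCS1, an early enzyme of sterol synthesis, rose in both fits, by 0.61 as deposited and 0.16 with trends removed. Of 39 nuclear genes of oxidative phosphorylation 7 rose and 14 fell, or 1 and 15, the single gene higher in both fits being UQCRC2, a core subunit of complex III (47.3 ± 2.14 to 70.3 ± 1.39). COX4I1, a subunit of complex IV, fell by 0.15 (-0.17). Of 13 mitochondrially encoded genes 0 rose and 2 fell. Hypoxia and glycolysis genes counted 7 of 31 higher and 14 lower, or 3 and 6. HIF1A, the oxygen-regulated factor, rose from 4.81 ± 0.366 to 10.5 ± 0.843 (0.51 with trends removed), and the abundant enzymes GAPDH and ENO1 fell by 0.16 and 0.14, without a call once trends were removed.

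Ribosomal protein genes showed how the correction can turn a count. Of 43 large-subunit genes 9 rose and 7 fell as deposited and 5 and 13 with trends removed, and of 31 small-subunit genes 5 and 6 became 2 and 12. RPL7 rose by 0.39 as deposited and was at -0.04 with trends removed. RPS25 rose in both, by 0.26 and 0.32. For 77 mitochondrial ribosomal proteins the counts were 19 and 20, then 4 and 23. Of 45 proteasome genes 19 rose and 11 fell, or 9 and 9. PSMD1, of the regulatory particle, rose from 44.1 ± 0.909 to 70.3 ± 2.28 (0.44 with trends removed).

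Immediate early genes, which growth factors and stress switch on within minutes, fell more often than they rose, 13 of 28 against 4 (46.4% and 14.3%). With trends removed 7 fell and 3 rose. The list's median GC content was 55.0%. In the bin that holds it (52.8% to 59.0%) 40.0% of genes fell and 1.4% rose as deposited, or 8.0% and 4.1% with trends removed. FOS had 226, 218 and 223 FPKM alone and 194, 183 and 187 at 10:4, and EGR1 had 92.6, 88.3 and 92.3 and 69.8, 71.5 and 74.8. Every co-culture library was below every library of BON-1 alone for both, with log2 differences of -0.24 for FOS and -0.33 for EGR1 (limma adjusted p = 2.6e-05 and 9.72e-05; -0.14 and -0.22 with trends removed). NR4A1, a nuclear receptor of this class, fell from 6.79 ± 0.658 to 5.07 ± 0.267 (-0.25).

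Among inflammatory genes CXCL8, a chemokine, rose from 9.62 ± 0.513 to 15.04 ± 2.70, a call that ended with trends removed (0.16, limma adjusted p = 0.296). IL6ST, the shared receptor of the IL-6 family, rose from 1.35 ± 0.11 to 3.11 ± 0.323 and kept 0.29. NF-kB and inflammatory genes counted 5 of 17 higher and 5 lower, or 2 and 2, against 28% and 19% of all genes as deposited and 10.7% and 12.6% with trends removed, with IL6, IL1A, IL1B and CCL2 too low to be tested. Of 24 interferon and MHC class I genes 3 rose and 2 fell, or 3 and 0. B2M, the light chain of MHC class I, rose by 0.36 as deposited and was at -0.04 with trends removed, and IFI6, an interferon-induced gene, fell from 15.6 ± 0.719 to 11.4 ± 2.04 and missed the threshold with trends removed (limma adjusted p = 0.0985) or without 10:4 replicate 1 (0.0533). The YAP and TEAD list, mostly members of the pathway, counted 3 of 17 higher (TEAD1, WWTR1 and LATS1) and 1 lower, or 2 and 1, and p53 targets 9 of 24 and 3, or 4 and 1.

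Genes mutated or lost in pancreatic neuroendocrine tumours, and other chromatin and tumour suppressor genes, counted 7 of 23 higher and 9 lower, or 2 and 5 with trends removed. SETD2, a histone methyltransferase, and RB1, the retinoblastoma protein, rose by 0.62 and 0.82 and kept 0.26 and 0.33. SMARCA4, the motor of the SWI/SNF complex, fell by 0.25 (-0.16).

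Outside the lists, KIAA1324, an oestrogen-regulated membrane protein, fell in both fits. It had 15.6, 15.6 and 16.5 FPKM alone and 10.9, 11.9 and 11.3 at 10:4, with a log2 difference of -0.45 ± 0.0527 (SE, limma adjusted p = 3.42e-05) or -0.52 with trends removed. Some genes of low GC content fell where most of their kind rose, so their falls grew with trends removed. ATXN7L3B, which is related to a subunit of the SAGA complex, went from 29.8 ± 1.02 to 25.4 ± 0.528 (-0.22, then -0.68), and CPT2, which completes the entry of fatty acids into mitochondria, from 13.1 ± 0.103 to 11.3 ± 0.968 (-0.20, then -0.65). As deposited the call for CPT2 ended without BON-1 alone replicate 2 or 10:4 replicate 2 (limma adjusted p = 0.0551 and 0.0823). The aldo-keto reductases AKR1C1 and AKR1C2, close paralogs among which reads may be split, fell by 0.23 and 0.21, then -0.55 and -0.63.

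The co-culture at 10:4 was next tested directly against its neighbours on the same 12737 genes. Against 10:2, 405 genes were called (3.18%), 347 higher (2.72%) and 58 lower (0.455%), and against 10:6, 43 were called (0.338%), 30 higher (0.236%) and 13 lower (0.102%). With trends removed the counts were 104 (0.869%), with 70 higher (0.585%), and 94 (0.785%), with 60 higher (0.501%). Leaving out 1 library moved the first count to between 52 and 406 and the second to between 11 and 36. The lowest values came without 10:4 replicate 2 in the first, and without 10:4 replicate 2 or 10:6 replicate 1 in the second, where higher and lower calls became 3 and 8.

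Matrix genes at 10:4 lay between their neighbours. Of 13 matrix genes 10 stood higher than at 10:2 and 5 lower than at 10:6. COL1A1 means were 18.0 at 10:2, 37.4 at 10:4 and 54.4 at 10:6, with direct differences of 1.01 against 10:2 and -0.53 against 10:6 (limma adjusted p = 2.65e-08 and 4.45e-05). ACTA2 differed by 1.25 and -0.47, and SPARC by 1.05 and -0.64. COL1A1, COL1A2, COL3A1, SPARC, FN1, ACTA2 and TAGLN made up 7 of the 13 genes lower at 10:4 than at 10:6. The others were EGR1 and the immediate early or stress genes BTG2, BHLHE40 and CDKN1A, with RBM3, a cold-induced RNA-binding protein, and TP53BP2. SCG2 means were 1137 ± 34.9, 1308 and 1400.5 ± 7.84 from 10:2 to 10:6, higher at 10:4 than at 10:2 (limma adjusted p = 0.00788) and not past the threshold against 10:6 (0.195).

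A set of 24 genes stood highest at 10:4, called higher there than in BON-1 alone, at 10:2 and at 10:6, and 0 stood lowest. CENPF had 3.96, 4.25 and 4.14 FPKM in the 3 libraries of 10:4, against 1.37, 1.30 and 1.31 in BON-1 alone, 2.66, 2.11 and 1.95 at 10:2 and 2.62, 2.57 and 2.42 at 10:6. KIF5B, the heavy chain of conventional kinesin, had 16.7, 18.0 and 17.9, against 6.54, 6.91 and 6.43, 11.9, 11.5 and 12.4 and 10.7, 12.8 and 12.4 in the same order. RANBP2 had 11.7, 13.9 and 13.9 at 10:4, 9.09, 8.67 and 8.84 at 10:2 and 7.93, 8.56 and 8.63 at 10:6. In these 3 genes every library at 10:4 was above every other library of the study. Direct differences against 10:6 were 0.53 for CENPF, 0.52 for KIF5B and 0.59 for RANBP2 (limma adjusted p = 0.0185, 0.00362 and 0.00262).

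Among the 24 were SMC3 and SMC4, ring proteins of cohesin and condensin, NCAPG, a condensin subunit, RIF1, a factor of replication timing, TOP2A, ECT2 and ANLN. The rest included TPR of the nuclear pore, the transport factor CSE1L, the translation factors EIF5B and ABCE1 and the chaperones HSP90AA1 and CCT8. The motor KIF21A, the apolipoprotein APOB and the guidance ligand SEMA3A were also among them. KTN1, TTC37, SKIV2L2, NMD3 and MAP4K3 complete the set. Median GC content was 39.1% in the 24 and 49.8% over all genes, adenine made up a median 32.3% of the transcript against 29.5% in 2908 tested genes of the same range of GC content and length, and median length was 5156 bases against 3064 over all genes. In those 2908 genes the median difference was 0.41 against BON-1 alone and -0.0086 against 10:6, where the 24 had medians of 0.89 and 0.37. Since the 24 were picked by these differences, their medians are a description.

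How many of the 24 were called in all 3 tests depended on single libraries and on the model. With trends removed 10 remained, without 10:4 replicate 2 only KIF5B and RANBP2 did, and without 10:4 replicate 3 or 10:6 replicate 1 the same 2 and HSP90AA1. Leaving out any other library of the co-cultures kept 6 (10:6 replicate 2) to 15 (10:4 replicate 1), and the fit without a filter on low values kept 5. The replicate number as a block kept 9, or 8 with trends removed as well. In each of these settings all 24 kept the direction in all 3 tests. They were picked by these differences in the same libraries, so a kept direction is no separate support. With only the groups compared in the fit, 10 genes were called higher at 10:4 than at 10:6, so at most 10 of the 24 could remain.

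**Figure D5:**
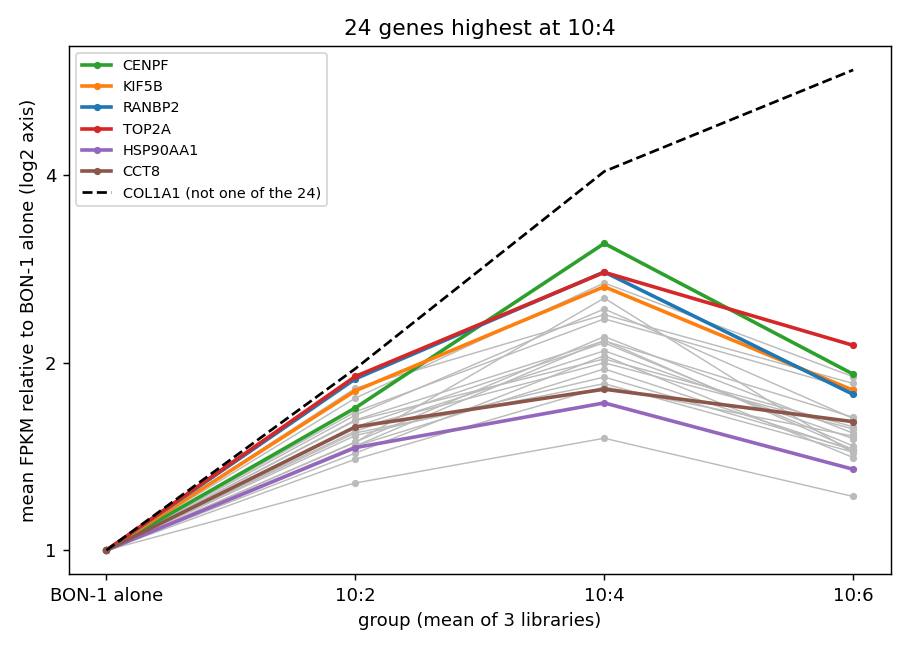
Mean FPKM of 3 libraries relative to BON-1 alone (y axis, log2 scale) across the 4 groups (x axis) for the 24 genes called highest at 10:4, with 6 in colour and the others in grey; the dashed line is COL1A1, which is not one of them. The 24 lines peak at 10:4 and come down at 10:6, while COL1A1 continues up from a mean of 37.4 to 54.4 FPKM.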

How the data were processed

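The authors deposited 1 table of FPKM values for 54261 genes in 12 libraries of polyadenylated RNA. Per the submitters' processing notes HISAT2, featureCounts and hg38 were used; their versions and settings: not given in the sources used here. The code in a column's name was looked up in the sample titles.

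Whole reads were recovered from FPKM (99.9738% of 267349 nonzero values came out whole within 1e-07 of a read), which gave the depths. Values were log2(FPKM + 1), so fold changes of low genes are understated. limma 3.58.1 (R 4.3.3) fitted 1 mean per group over all 12 libraries, with empirical Bayes moderation, a variance trend and Benjamini-Hochberg adjustment within a comparison at 0.05. Trends on GC content (longest GENCODE 29 transcript) and log2 length were removed per library with splines of 5 degrees of freedom each, for 93.95% of tested genes. The method was tested on simulated data. Positions and promoters are from RefSeq GRCh38.p14. No library was a repeat of another, since chi-square over degrees of freedom between libraries of the same group was 1.66 to 2.04 for BON-1 alone and 2.14 to 4.07 for 10:4 (genes of 50 reads or more).

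Members and gene lists were chosen with earlier results of these data known, so the lists got counts and medians and no test. Named protein-coding genes had a call at 10:4, libraries that did not overlap and, on the higher side, a mean of 5 FPKM or more, and were the 15 largest rises and falls, with 10 and 10 after removal of trends. Added to them were the 10 largest rises from a mean under 0.5 FPKM to at least 2, up to 10 genes highest at 10:4 in all tests and, in each list, the 4 members with the smallest p and the 2 with the highest mean. Fewer were named than the rule takes, and some others (NOTCH, chaperone, marker and matrix genes, those lower at 10:4 than at 10:6, and the short RNAs) were chosen after their values were seen. Tables and plots were made with pandas 2.3.3, Biopython 1.88 and matplotlib 3.10.9 in Python 3.11.15.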

Additional observations from a re-analysis of the deposited data

How the results depend on the processing

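The count of genes changed at 10:4 against BON-1 alone (5995, 59.6% of them higher) stayed within 1.5 times under most alternatives, but the excess of rises turned into an excess of falls under 4: 4298 calls with a filter of FPKM 5 (1954 higher, 2344 lower), 6476 with quantile normalisation (2804 and 3672), 2781 with length and GC trends removed (1279 and 1502) and 2577 with those trends removed and the replicate number as a block (1222 and 1355). Leaving out 1 library gave 5023 to 5774 calls. Over the tested genes, deviations of same-numbered libraries correlated at -0.023, -0.018 and 0.036, which cannot exclude a pairing in single genes. The replicate block alone gave 5715 calls. For CGA and CGB5 replicate 1 was the lowest library of every group. With the block their SE was 0.390 and 0.343 in place of 0.554 and 0.608 (limma adjusted p = 0.00263 and 0.00191). Whether replicate numbers mark a batch was not tested.

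Against 10:2 (405 calls) there were 180 without a filter on low values, 193 with the replicate block, 104 with trends removed, 58 with block and trends, 1055 with limma-voom on recovered reads, 725 among protein-coding genes alone, 46 with only the groups compared in the fit, and 52 to 406 when 1 library was left out. Against 10:6 (43 calls, 30 higher) there were 17 without a filter (8 higher, 9 lower), 70 with quantile normalisation, 20 with the replicate block, 94 with trends removed, 261 with limma-voom, 98 among protein-coding genes alone, 18 with only the groups compared, and 11 to 36 when 1 library was left out. With 10:4 replicate 2 or 10:6 replicate 1 left out, falls outnumbered rises (11 calls, 3 higher and 8 lower, in both), as they did without 10:4 replicate 3 (15 calls, 6 and 9). Left-out libraries leave fewer samples in the fit; for the other settings the cause was not tested.

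Of 181 named genes tested, 160 were called against BON-1 alone and 124 of those were called in the same direction with trends removed. Signs turned with trends removed, with or without the block, to 0.011 for ATF4, -0.042 for B2M, -0.10 for CTNNB1, -0.048 for DNAJC12, 0.00031 for IGF2, 0.033 for KRT8, -0.33 for NTS, -0.039 for RPL7, -0.042 for THBS1, 0.12 for TPM2 and -0.14 for WWTR1. Depth limits the low genes most: at 12604134 to 21882537 reads, values under about 1 FPKM rest on few reads. Examples are the fibroblast markers that were not tested and CGB8 at 0.875 FPKM in BON-1 alone replicate 1.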

Other observations

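Some short RNAs that carry no poly(A) tail were measured in these poly(A)-selected libraries and stood higher at 10:4. RN7SK, the scaffold RNA that holds the elongation kinase P-TEFb inactive, had 2.70, 2.89 and 4.43 FPKM in BON-1 alone and 7.63, 8.84 and 8.24 at 10:4, and it was also higher at 10:4 than at 10:2 by 1.45 on the log2 scale (limma adjusted p = 0.0203 against BON-1 alone and 0.0469 against 10:2, the second 0.0864 with length and GC trends removed). The call against BON-1 alone ended without BON-1 alone replicate 1 or 2 or 10:4 replicate 2 (limma adjusted p from 0.0583 to 0.0658). RMRP, the RNA of the mitochondrial RNA processing ribonuclease, had 0.891, 0.682 and 1.73 FPKM alone and 2.62, 3.26 and 4.54 at 10:4, a difference of 1.10 (limma adjusted p = 0.00465). SNORA4, a small nucleolar RNA that lies in an intron of another gene, had 3.05, 1.33 and 1.70 alone and 6.16, 8.69 and 8.87 at 10:4. These genes are short, so few reads stand behind each value, and reads of a host gene cannot be told apart from those of SNORA4.

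Histone genes of the replication-dependent clusters, whose messages also lack a poly(A) tail, had few calls. Of 41 tested members 2 were called higher and 2 lower, while the fit without length and GC trends called 2 and 4. HIST1H2AL was one of those that fell, from 3.94, 2.24 and 2.96 FPKM to 1.05, 1.69 and 0.970 (limma adjusted p = 0.0103).

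Other lists gave the following counts at 10:4 against BON-1 alone. Kinesin genes had 13 of 28 higher and 4 lower, or 5 and 2 with trends removed. Zinc finger genes of the ZNF family had 66 of 210 higher and 28 lower, or 18 and 22. Insulin-like growth factor genes had 1 of 13 higher and 2 lower in each fit, of which 0 and 1 were the same genes. Leukocyte and endothelial markers had 1 of 4 higher and 0 lower, or 0 and 0. Among the ZNF genes, ZNF664 rose from 12.7 ± 0.452 to 22.2 ± 1.67 FPKM (SD, n = 3) and kept a log2 difference of 0.72 with trends removed.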
